A study of Mus musculus with 16 samples.

Results

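The antioxidant and glutathione enzymes are a list of 35 genes. Most remove superoxide and peroxides, make or conjugate glutathione, or control the genes that do so. The list also holds heme oxygenases, a quinone reductase and the mitochondrial membrane proteins Tspo and Ucp2. The genes were chosen by gene symbol, and all array probes annotated with one of these symbols were taken. Of the 35 genes, 31 had a probe and 29 were measured, of 8581 named genes measured in all. Prdx5, Prdx6, Gsr and Ucp2 were not analysed here, since no probe carried their symbol. The probes of Gclc and Txnrd1 were detected on 0 of 16 arrays, so both genes were left out of the tests.

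The samples were hearts of 16 C57BL/6 mice aged 18 weeks, with 4 male and 4 female WT mice and 4 male and 4 female cs-ERα−/− mice. WT mice carried the floxed ERα alleles (ERα flox/flox), with no Cre stated for them. In cs-ERα−/− mice, exon 3 of ERα was floxed and Cre was driven by the α-MHC promoter, which is active in cardiomyocytes, so other cells of the heart were not targeted. Each heart was hybridized to 1 Illumina MouseRef-8 array. The comparisons ask how the loss of cardiomyocyte ERα and the sex of the mouse relate to cardiac transcript levels.

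Superoxide dismutases turn superoxide into hydrogen peroxide, and catalase, glutathione peroxidases and peroxiredoxins then reduce peroxides. Glutathione S-transferases join glutathione to electrophiles and lipid peroxidation products, and the transcription factor NRF2, held in check by KEAP1, drives many of these genes through the antioxidant response element. Mitochondria fill much of the cardiomyocyte and are a main source of superoxide in the heart.

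Probes detected per array numbered 11492 to 11956 in male WT and 11794 to 11981 in female WT hearts. In cs-ERα−/− hearts they numbered 11882 to 12203 in males and 11945 to 12610 in females. Counts thus ran higher in cs-ERα−/− hearts, with overlap, and any bearing on the calls was not tested. Median signals lay between 17.2 and 25.6. Pairs of arrays correlated at 0.988 to 0.995 across probes. Both probes of Esr1, the gene of ERα, were detected on 0 of 16 arrays, WT included, so the deletion could not be checked on the arrays. Of the cardiomyocyte markers, 7 were measured and 0 were called by genotype or by sex. No label gives the BeadChip of an array, so a chip effect was not tested.

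All signals below are neqc-normalized log2 signals, and a difference of 1 is a 2-fold change. A gene is shown by its brightest probe unless stated, and calls are at an adjusted p under 0.05 (limma, Benjamini-Hochberg over all kept probes). In cs-ERα−/− hearts Tspo and Gpx1 were higher and Gsta1 was lower than in WT hearts. In female hearts Mgst1 was lower than in male hearts. The other 25 measured members passed neither test.

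Thus 2 of 29 members rose and 1 fell with genotype, against a background of 2.93% of all measured genes called higher and 1.6% called lower. By sex, 0 members were higher in females and 1 was lower, against 0.781% and 0.734% of all genes. The median genotype difference of the members was −0.02, beside −0.01 over all probes. The median sex difference was −0.01, beside 0.00 over all probes. As a group, the members were thus centred close to 0 in both comparisons, with 14 members above 0 and 15 below by genotype. The unadjusted p was under 0.05 for 9 of 29 members by genotype, beside 2152 of 12246 probes, and for 7 of 29 by sex, beside 1581 of 12246 probes.

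**Figure D1:**
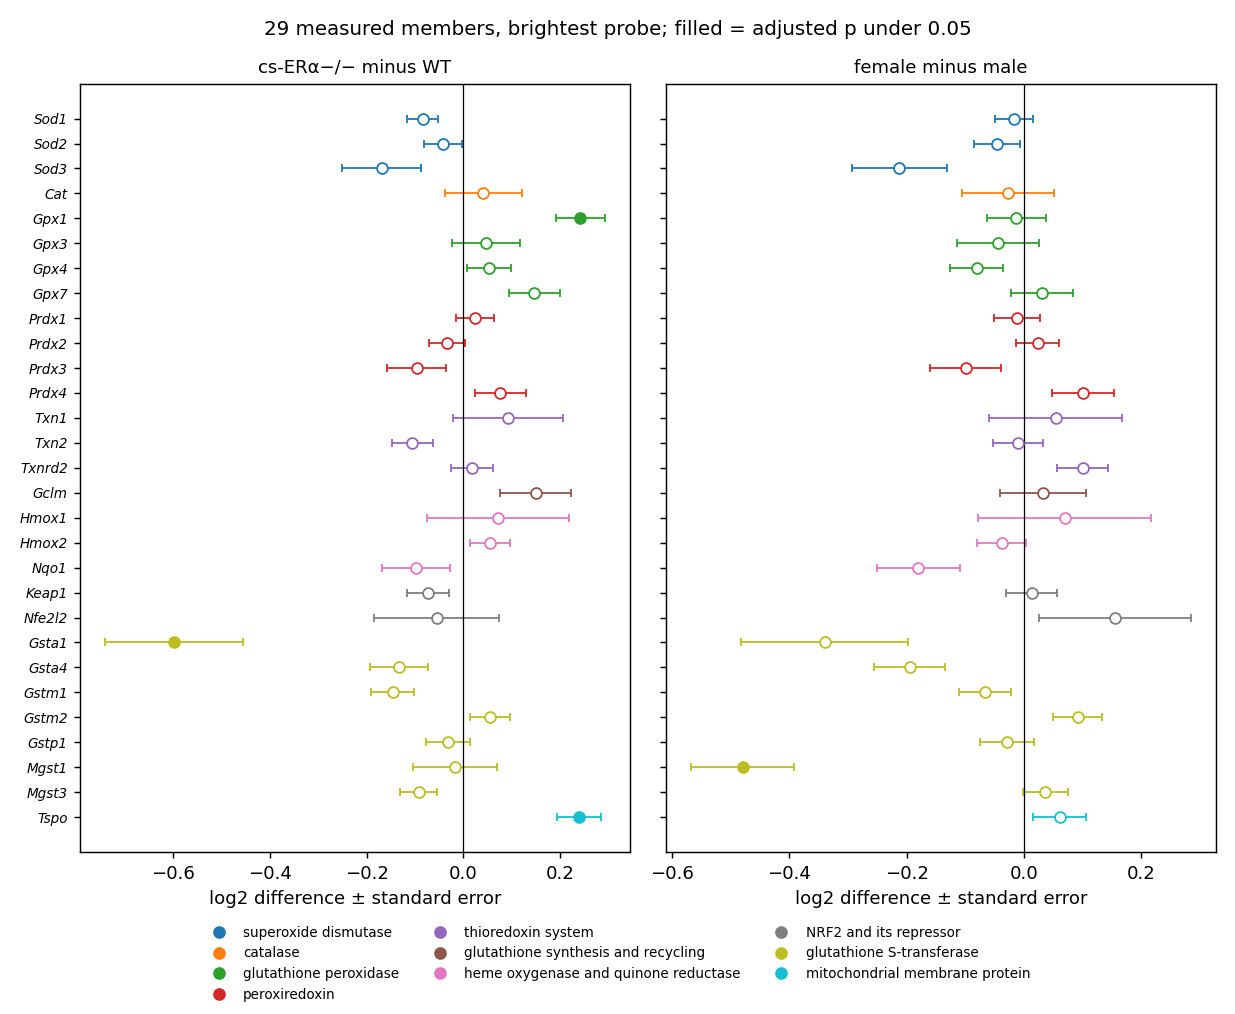
Log2 difference with its standard error for the brightest probe of each of the 29 measured members, cs-ERα−/− minus WT at left and female minus male at right, coloured by role. Filled points are the calls at an adjusted p under 0.05, Gpx1, Gsta1 and Tspo by genotype and Mgst1 by sex.

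The promoters of the members were searched for the antioxidant response element core, TGACNNNGC, on both strands, in windows of 250 bases before to 50 bases after the annotated gene start (RefSeq, GRCm38.p6). A window was given for 28 of the 35 members, and 7 of these (25.0%) held the core, beside 14.0% of 27025 genes. They were Gclm, Mgst1, Nfe2l2, Prdx1, Sod1, Txnrd1 and Ucp2. Of the 3 members called by genotype, Gpx1 and Gsta1 were not among them and Tspo had no window. Bases outside the windows were not searched, so a core there would have been missed. The sequences below show the core in the member called by sex and in 3 members from other roles. Each is written 5′ to 3′ on the gene strand, which is the plus strand for all 4, with the core in capitals, read here as its reverse complement.
Mgst1, chr6:138140451-138140499: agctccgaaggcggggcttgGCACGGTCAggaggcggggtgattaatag
Sod1, chr16:90220686-90220734: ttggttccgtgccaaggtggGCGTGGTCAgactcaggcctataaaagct
Gclm, chr3:122245403-122245451: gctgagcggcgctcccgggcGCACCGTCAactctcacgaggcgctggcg
Prdx1, chr4:116685446-116685494: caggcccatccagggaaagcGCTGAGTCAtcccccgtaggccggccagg

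The palindromic estrogen response element (GGTCA, any 3 bases, then TGACC) was in 0 of the 28 members with a window and in 20 of 27025 genes (0.074%). A match describes letters only, and the lack of one describes these windows only. Of the 4 members printed, none was called by genotype and only Mgst1 was called by sex, as given below.

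Of the superoxide dismutases, all 3 had a negative genotype difference and none was called. Sod1, the copper-zinc enzyme of the cytosol, had the smallest p of the role. Its signals in male WT hearts were 13.51, 13.51, 13.54 and 13.50. In female WT hearts they were 13.54, 13.51, 13.52 and 13.60. In male cs-ERα−/− hearts they were 13.47, 13.49, 13.49 and 13.46, and in female cs-ERα−/− hearts 13.47, 13.41, 13.47 and 13.31. Every cs-ERα−/− heart lay below every WT heart, but the gap was narrow. The difference was −0.08 (SE 0.03, adjusted p = 0.169 in limma).

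A lack of overlap between the genotypes, at any kept probe of a gene, was seen for 2 of 29 members (6.9%) and 0.711% of all measured genes. The 2 members were Sod1 and, at its brightest probe only, Tspo. Sod2, the manganese enzyme of the mitochondrial matrix, differed by −0.04 (SE 0.04). Sod3, the extracellular enzyme, differed by −0.17 (SE 0.08, adjusted p = 0.284), and by −0.21 between females and males (SE 0.08, adjusted p = 0.248). The superoxide dismutases were also negative by sex, but Sod1 and Sod2 turned positive when arrays were scaled to a common median.

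Catalase, the peroxisomal enzyme that splits hydrogen peroxide, did not pass either test. Cat signals were 8.80, 8.99, 8.60 and 8.88 in male WT hearts and 8.69, 8.88, 8.48 and 8.97 in female WT hearts. They were 8.98, 8.77, 8.54 and 9.01 in male cs-ERα−/− hearts and 8.82, 8.70, 8.92 and 8.89 in female cs-ERα−/− hearts. The 4 groups overlapped over nearly their whole range, with a genotype difference of 0.04 (SE 0.08, adjusted p = 0.838).

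The glutathione peroxidases reduce peroxides with glutathione, and all 4 measured members had a positive genotype difference, 1 of them called. Gpx1, the abundant enzyme of cytosol and mitochondria, was the called one. Its signals were 12.25, 12.53, 12.65 and 12.47 in male WT hearts and 12.31, 12.51, 12.31 and 12.42 in female WT hearts. They were 12.75, 12.51, 12.70 and 12.61 in male cs-ERα−/− hearts and 12.70, 12.74, 12.64 and 12.74 in female cs-ERα−/− hearts. The females of the 2 genotypes did not overlap, while male WT and male cs-ERα−/− hearts did. The females also did not overlap for the uncalled Gpx7 and Sod1, and the share of all genes doing so within a sex was not counted.

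Gpx1 averaged 12.43 ± 0.13 (SD, n = 8) in WT and 12.67 ± 0.08 (SD, n = 8) in cs-ERα−/− hearts, a 1.18-fold rise. The difference was 0.24 (SE 0.05, adjusted p = 0.0069 in limma). It was 0.32 in females (SE 0.07, adjusted p = 0.0366) and 0.17 in males (SE 0.07, adjusted p = 0.338). The female effect exceeded the male one by 0.15 (SE 0.10, adjusted p = 0.999), so a sex difference in the effect was not shown. Under median scaling the genotype difference was 0.21 with an adjusted p of 0.395.

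Gpx7, an enzyme of the endoplasmic reticulum, differed by 0.15 (SE 0.05, adjusted p = 0.132). Gpx3, the secreted plasma enzyme, differed by 0.05 (SE 0.07), and Gpx4, which reduces lipid hydroperoxides in membranes, by 0.05 (SE 0.05). The positive sign of all 4 was kept with the authors' normalized values, with no further background correction and with median scaling.

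The peroxiredoxins, which reduce peroxides through a reactive cysteine, did not pass any test in 4 of 4 measured members. Prdx3, the mitochondrial one, had the smallest genotype p. Its signals were 12.14, 11.99, 12.09 and 12.16 in male WT, and 11.96, 12.10, 11.81 and 12.25 in female WT hearts. They were 12.09, 12.12, 11.78 and 12.13 in male cs-ERα−/−, and 11.95, 11.91, 11.75 and 11.99 in female cs-ERα−/− hearts. The groups overlapped, with a difference of −0.10 (SE 0.06, adjusted p = 0.433). Prdx1 (0.02), Prdx2 (−0.03) and Prdx4 (0.08), the last an enzyme of the endoplasmic reticulum, lay on both sides of 0.

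In the thioredoxin system, which returns oxidized peroxiredoxins to their active state, none of 3 measured members was called. Txn2, the mitochondrial thioredoxin, gave 10.17, 10.19, 10.15 and 10.27 in male WT hearts and 10.32, 10.23, 10.18 and 10.09 in female WT hearts. In cs-ERα−/− hearts it gave 10.13, 10.13, 10.05 and 10.13 in males and 9.99, 10.15, 10.08 and 10.10 in females. The cs-ERα−/− hearts were mostly at the low end of the WT range, with a difference of −0.11 (SE 0.04, adjusted p = 0.191). Txnrd2, the mitochondrial thioredoxin reductase, differed by 0.02 (SE 0.04).

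Txn1, the cytosolic thioredoxin, was the member with the most unlike genotype differences in the sexes, −0.15 in males (SE 0.16) and 0.34 in females (SE 0.16). Its signals were low, from 5.80 to 6.98. Its interaction had an adjusted p of 0.999, and an unadjusted p of 0.0413, the only one of the 29 members under 0.05. Over all genes the interaction called 0% by limma, with 456 of 12246 probes at an unadjusted p under 0.05.

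**Figure D2:**
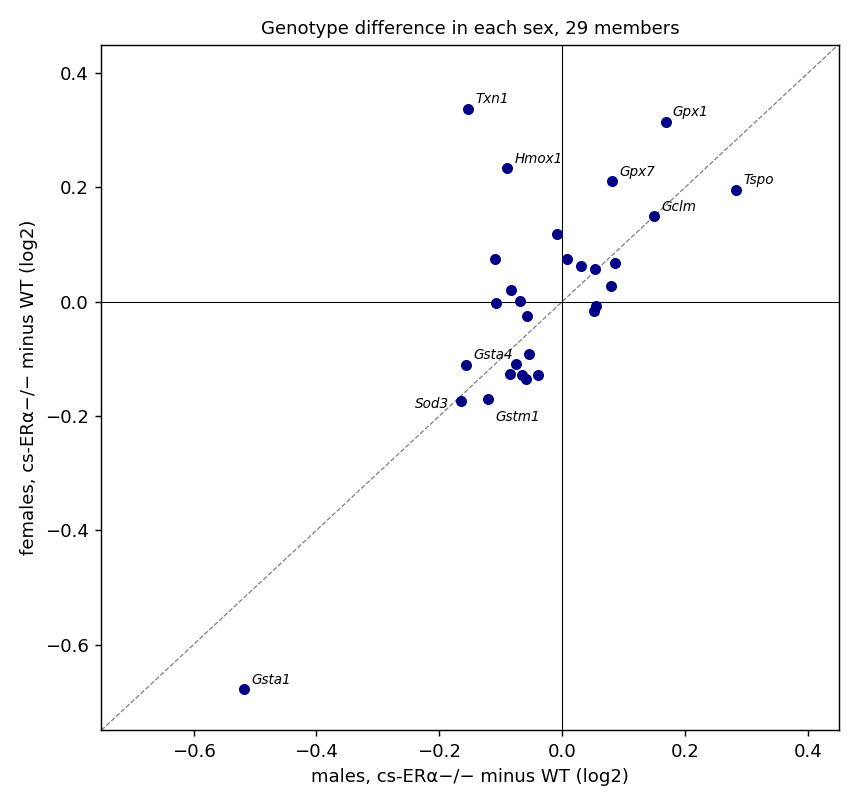
Genotype difference (cs-ERα−/− minus WT, log2) in males on the horizontal axis and in females on the vertical axis, 1 point per measured member, with the line of equal difference dashed. Gsta1 lies far below 0 in both sexes and Tspo and Gpx1 above 0 in both, while Txn1 is at −0.15 in males and 0.34 in females.

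Within males, Tspo was the called member, with 0.734% of all genes called higher and 0.431% called lower. Within females, Gpx1 was the called member, with 0.676% of all genes called higher and 0.175% lower. Neither call differed between the sexes by the interaction test, which was passed by 0 of 29 members.

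Glutathione synthesis was represented by Gclm, the modifier subunit of the rate-limiting ligase. Gclm signals were 7.79, 7.92, 8.00 and 7.91 in male WT hearts and 7.77, 8.14, 7.76 and 8.09 in female WT hearts. They were 8.16, 8.20, 7.83 and 8.04 in male cs-ERα−/− hearts and 7.98, 8.08, 8.24 and 8.05 in female cs-ERα−/− hearts. The difference of 0.15 (SE 0.07, adjusted p = 0.293) was the same size in males (0.15) and females (0.15), and the genotypes overlapped.

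Among the heme oxygenases, which degrade heme, and the quinone reductase, no member was called. Nqo1, which reduces quinones, gave 9.05, 9.29, 8.92 and 9.29 in male WT hearts and 8.94, 9.12, 8.83 and 9.10 in female WT hearts. In cs-ERα−/− hearts it gave 8.90, 9.14, 9.01 and 9.26 in males and 8.68, 8.93, 9.00 and 8.84 in females. The groups overlapped, with a genotype difference of −0.10 (SE 0.07, adjusted p = 0.515) and a sex difference of −0.18 (SE 0.07, adjusted p = 0.256). Hmox1, the inducible enzyme, differed by 0.07 (SE 0.15) and Hmox2, the constitutive one, by 0.06 (SE 0.04).

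NRF2 (Nfe2l2) differed by −0.05 (SE 0.13) and was among the most variable members. Keap1, its repressor, gave 10.41, 10.40, 10.42 and 10.32 in male WT hearts and 10.40, 10.40, 10.48 and 10.41 in female WT hearts. In cs-ERα−/− hearts it gave 10.38, 10.27, 10.38 and 10.31 in males and 10.28, 10.44, 10.41 and 10.19 in females. The cs-ERα−/− hearts spread further down but overlapped WT hearts, with a difference of −0.07 (SE 0.04, adjusted p = 0.406). The other 3 Keap1 probes had differences of −0.13, −0.10 and −0.19, with adjusted p of 0.0953, 0.232 and 0.116, so all 4 probes were negative and none was called.

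The glutathione S-transferases held the widest differences, with 6 of 7 members negative by genotype and 1 called. Gsta1, a cytosolic transferase active on products of lipid peroxidation, was the called one. Its signals were 7.57, 7.96, 7.53 and 7.27 in male WT hearts and 7.05, 7.64, 7.19 and 7.40 in female WT hearts. They were 6.64, 6.69, 7.37 and 7.57 in male cs-ERα−/− hearts and 6.43, 6.45, 7.18 and 6.52 in female cs-ERα−/− hearts. The cs-ERα−/− hearts fell into low values and values within the WT range, so the groups overlapped.

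Gsta1 averaged 7.45 ± 0.29 (SD, n = 8) in WT and 6.86 ± 0.45 (SD, n = 8) in cs-ERα−/− hearts, a ratio of 0.661. The difference was −0.60 (SE 0.14, adjusted p = 0.0182 in limma). It was −0.52 in males (SE 0.20, adjusted p = 0.288) and −0.68 in females (SE 0.20, adjusted p = 0.140), neither of them called. Without the intensity trend in the variances the adjusted p was 0.0524, and without moderation it was 0.103.

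Gsta2 is a near-identical copy of Gsta1, so the probes of the pair may share signal, and the values of either gene are uncertain. Gsta2 signals were dimmer, between 5.78 and 6.48 in WT and between 4.87 and 6.37 in cs-ERα−/− hearts, with a difference of −0.44 (SE 0.15, adjusted p = 0.108). Gsta4, which conjugates the lipid peroxidation product hydroxynonenal, differed by −0.13 by genotype (SE 0.06, adjusted p = 0.252) and by −0.20 by sex (SE 0.06, adjusted p = 0.136).

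Gstm1, of the mu class, lay between 11.02 and 11.28 in WT and between 10.86 and 11.06 in cs-ERα−/− hearts. Its difference of −0.15 (SE 0.04, adjusted p = 0.0678) missed the threshold. Gstm2 differed by 0.05 (SE 0.04), and Gstp1, of the pi class, by −0.03 (SE 0.05).

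Mgst1, a membrane-bound transferase of the endoplasmic reticulum and outer mitochondrial membrane, was the member called by sex. Its signals were 10.66, 10.99, 10.91 and 10.89 in male WT and 10.69, 10.52, 10.75 and 11.05 in male cs-ERα−/− hearts. They were 10.16, 10.66, 9.92 and 10.42 in female WT and 10.19, 10.34, 10.39 and 10.53 in female cs-ERα−/− hearts. Female hearts were mostly below the males, with overlap through female WT replicate 2, female cs-ERα−/− replicate 4 and male cs-ERα−/− replicate 2.

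Mgst1 averaged 10.81 ± 0.18 (SD, n = 8) in males and 10.33 ± 0.23 (SD, n = 8) in females, a ratio of 0.717. The sex difference was −0.48 (SE 0.09, adjusted p = 0.00427 in limma), and its other probe gave −0.49 (SE 0.10, adjusted p = 0.0121). By genotype Mgst1 differed by −0.02 (SE 0.09, adjusted p = 0.951). Under median scaling the sex difference was −0.43 with an adjusted p of 0.0605, and without moderation the adjusted p was 0.0806. Mgst3, a related membrane enzyme, differed by −0.09 by genotype (SE 0.04, adjusted p = 0.209), and its other probe by −0.14 (SE 0.04, adjusted p = 0.0519).

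**Figure D3:**
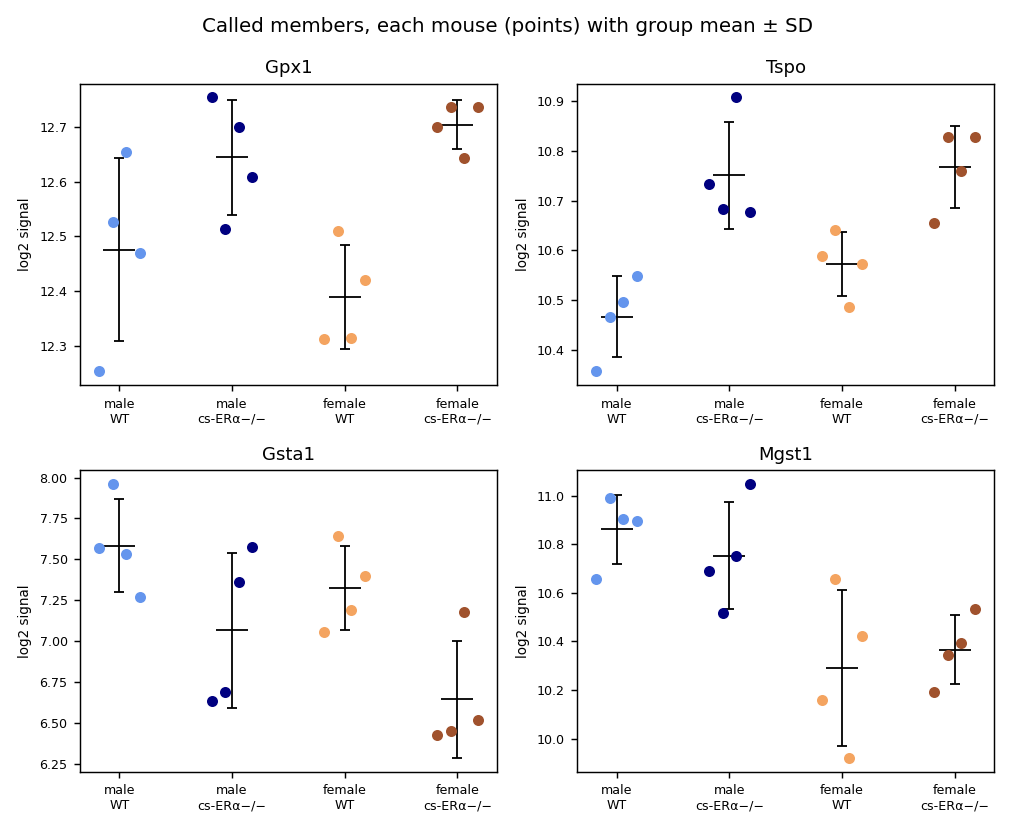
Log2 signal of Gpx1, Tspo, Gsta1 and Mgst1 in each of the 16 hearts (points) with the mean and SD of each group of 4 (bars), on axes that do not start at 0. Each gene is shown by its brightest probe, at which Tspo separates the genotypes without overlap. Gsta1 spreads widely among cs-ERα−/− hearts, and Mgst1 is lower in females of both genotypes.

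Tspo, whose product sits in the outer membrane of mitochondria and binds cholesterol, was the member with the smallest genotype p. Its signals were 10.36, 10.47, 10.50 and 10.55 in male WT hearts and 10.59, 10.64, 10.49 and 10.57 in female WT hearts. They were 10.73, 10.68, 10.91 and 10.68 in male cs-ERα−/− hearts and 10.65, 10.83, 10.76 and 10.83 in female cs-ERα−/− hearts. At this brightest probe every cs-ERα−/− heart exceeded every WT heart. At the other 2 Tspo probes the genotypes overlapped, with WT hearts up to 9.82 and 9.69 and cs-ERα−/− hearts from 9.60 and 9.57.

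Tspo averaged 10.52 ± 0.09 (SD, n = 8) in WT and 10.76 ± 0.09 (SD, n = 8) in cs-ERα−/− hearts, a 1.18-fold rise. The difference was 0.24 (SE 0.05, adjusted p = 0.00361 in limma). It was 0.28 in males (SE 0.06, adjusted p = 0.0294) and 0.20 in females (SE 0.06, adjusted p = 0.205), and the interaction was −0.09 (SE 0.09, adjusted p = 0.999). The other 2 Tspo probes were also positive, at 0.20 (SE 0.07, adjusted p = 0.0902) and 0.15 (SE 0.05, adjusted p = 0.116), but were not called. Under median scaling the difference of the brightest probe was 0.21 with an adjusted p of 0.421.

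**Figure D4:**
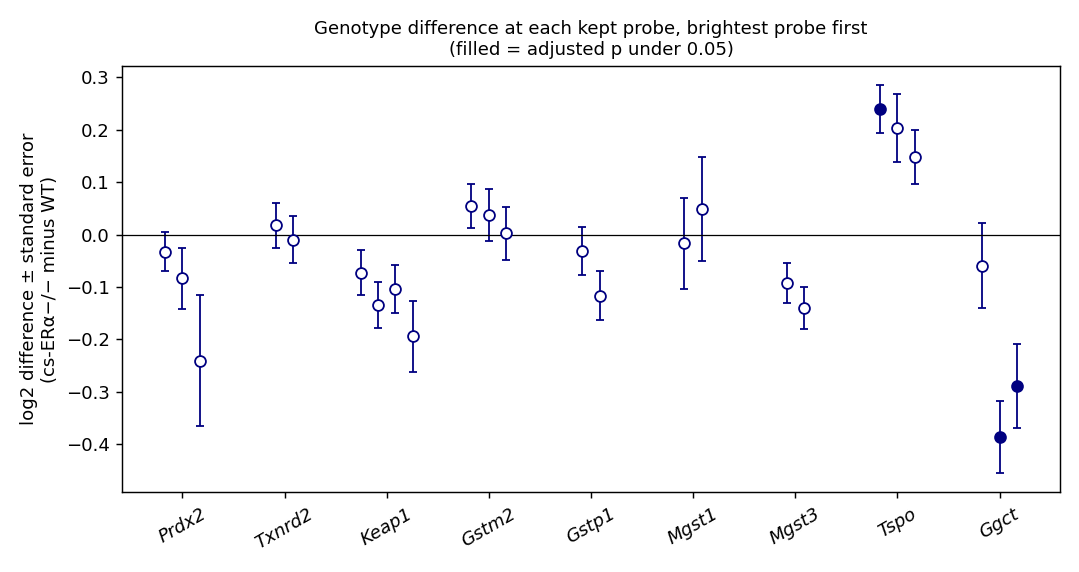
Genotype difference (cs-ERα−/− minus WT, log2) with its standard error at each kept probe of the members with several probes, and of Ggct, from the brightest probe at left to the dimmest. The 3 Tspo probes are all above 0 and the 4 Keap1 probes all below, while Ggct has 2 called dim probes and a brightest probe near 0.

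Myeloid cell markers moved with the genotype, as Tspo and Gpx1 did. Of 13 measured markers, 9 were called higher in cs-ERα−/− hearts and 0 lower, beside 2.93% and 1.6% of all genes. The summed signal of the myeloid markers was 20505 to 24990 in male WT and 17431 to 21560 in female WT hearts. It was 24756 to 34290 in male and 25748 to 27690 in female cs-ERα−/− hearts. Ptprc, Itgam and Ctss did not pass the detection filter. The fibroblast marker Dcn was also higher, by 0.18 (SE 0.04, adjusted p = 0.00753), 1 of 8 measured fibroblast markers. All 8 had a positive genotype difference. No endothelial, red blood cell or adipose marker was called by genotype, of 9, 4 and 3 measured. Positive differences were seen in 1, 4 and 3 of them. The part of these cell types in the Tspo and Gpx1 results was not tested. In whole hearts fewer cells of a type and less RNA per cell cannot be told apart. By sex, where Mgst1 was called, 0 myeloid markers were called. However, 0 of 13 had a positive sex difference (median −0.15). The markers thus shared the sign of Mgst1, although no single marker passed the threshold. The fibroblast markers Lum and Mfap5 were called higher in females, and 6 of 8 fibroblast markers were positive. The part of these cell types in the Mgst1 result was not tested.

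The members differed in how closely the mice of 1 group agreed. The pooled within-group SD had a median of 0.095 over the measured members, beside 0.148 over all kept probes. It was lowest for Sod1 (0.045) and highest for Hmox1 (0.354), Gsta1 (0.353) and Nfe2l2 (0.312). These last members were dim, with mean signals of 6.27, 7.16 and 6.97, while Sod1 averaged 13.49. Sod3 was also dim (6.83) but had an SD of 0.149. Spread was not compared at matched signal, so it does not separate agreement among mice from signal level.

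Neighbouring genes of the pathway, from lists of other enzymes, were mostly not called by genotype. Over all measured genes, 2.93% were called higher and 1.6% lower. Of 21 other glutathione enzymes measured, 0 were higher and 2 lower, Gstz1 and Ggct, the latter not at its brightest probe. Of 16 other thiol and methionine repair enzymes, 6 NADPH-supplying enzymes and 5 uncoupling or outer membrane proteins, none was called. Of 19 other NRF2 targets and partners, 1 was higher, Ephx1, and none was lower. No gene of these 5 lists was called by sex, beside 0.781% of all genes called higher in females and 0.734% lower.

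Ephx1, the microsomal epoxide hydrolase, gave 9.83, 10.07, 10.10 and 10.09 in male WT hearts and 10.11, 10.16, 9.98 and 10.02 in female WT hearts. It gave 10.35, 10.31, 10.43 and 10.26 in male and 10.57, 10.42, 10.40 and 10.27 in female cs-ERα−/− hearts. The genotypes did not overlap in either sex. The difference was 0.33 (SE 0.05, adjusted p = 0.000485), with 0.32 in males (adjusted p = 0.0303) and 0.35 in females (adjusted p = 0.0280).

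Gstz1, which isomerizes maleylacetoacetate in tyrosine breakdown, gave 10.55, 10.45, 10.56 and 10.44 in male WT hearts and 10.53, 10.50, 10.50 and 10.44 in female WT hearts. It gave 10.46, 10.36, 10.33 and 10.21 in male and 10.31, 10.34, 10.38 and 10.39 in female cs-ERα−/− hearts. Most cs-ERα−/− hearts lay below WT, with overlap through male cs-ERα−/− replicate 1, and the difference was −0.15 (SE 0.04, adjusted p = 0.0465).

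Ggct, which releases oxoproline from gamma-glutamyl amino acids, gave unlike answers at its 3 probes. The second brightest gave 7.67, 7.70, 7.69 and 7.47 in male WT and 7.44, 7.56, 7.48 and 7.40 in female WT hearts. It gave 7.22, 7.37, 7.28 and 7.21 in male and 6.91, 7.26, 6.91 and 7.15 in female cs-ERα−/− hearts. At this probe every cs-ERα−/− heart was below every WT heart, with a difference of −0.39 (SE 0.07, adjusted p = 0.00194). The dimmest probe differed by −0.29 (SE 0.08, adjusted p = 0.0473), but the brightest, at 8.95 to 9.65, by −0.06 (SE 0.08, adjusted p = 0.759).

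**Figure D5:**
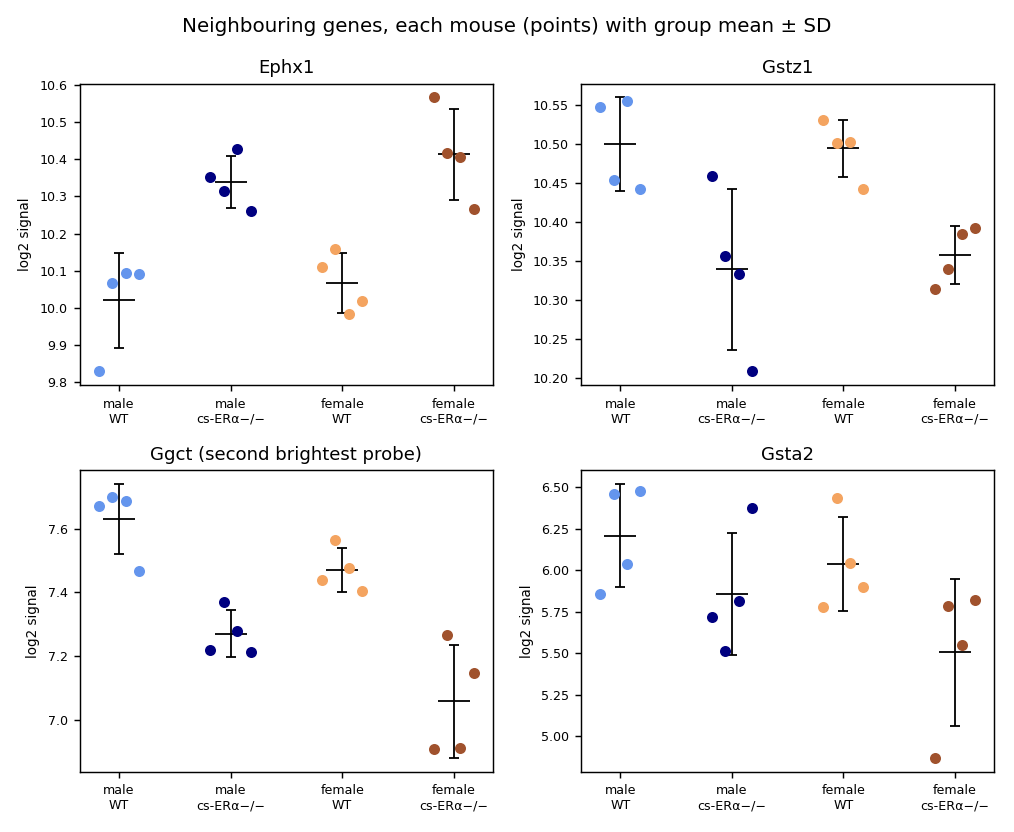
Log2 signal of Ephx1, Gstz1, the second brightest probe of Ggct, and Gsta2 in each of the 16 hearts (points) with the mean and SD of each group of 4 (bars), on axes that do not start at 0. Ephx1 is higher in every cs-ERα−/− heart, that Ggct probe is lower in every one, and Gsta2 overlaps.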

How the data were processed

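Heart RNA was hybridized to Illumina MouseRef-8 arrays (16 mice), and groups follow the sex and genotype labels. Scans were read into Genome Studio by the authors, with 1 averaged value per probe. The deposited non-normalized signals are intensities on a linear scale with background already subtracted. The deposited p-values are detection p-values of each probe on each array. The authors' normalized intensities (cubic spline) served as an alternative.

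Signals were background-corrected, quantile-normalized and log2-transformed with neqc of limma 3.58.1 (R 4.3.3, offset 16). Probes with a detection p under 0.05 on 3 or more of 4 arrays in some group were tested (12246 of 25697), and 1719 probes carried no gene symbol. Each group had its own mean in a limma model with an intensity trend, and Benjamini-Hochberg adjustment ran over all kept probes. Single-gene p-values are from this model unless an alternative is named beside them. The model was tested on simulated data, with no chip effect and with differences larger than those of Gpx1 and Tspo. That simulation therefore does not cover differences of their size. The model has no chip term. The number of arrays limits the precision.

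Every array's value is given for called members and, in roles without a call, for the member with the smallest genotype p. The members and lists were chosen with earlier results of these data known. Alternatives covered the authors' values, background correction, scaling, probe filter, variance model, averaging of probes, a replicate block and leaving out each array. Plots used matplotlib 3.10.9 (Python 3.11).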

Additional observations from a re-analysis of the deposited data

Results flagged for a closer look

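Of 116 groups of 4 hearts tested over the 29 measured members, 8 held a heart set apart from the other 3 relative to the group's range. Chance flags about 1 in 20 groups. The values given are the gap to the nearest heart divided by the range of the group. A small gap is thus flagged where the other 3 hearts nearly agree, as for Gstm1, Keap1 and Txn2. Gpx4 in female cs-ERα−/− replicate 3 was the highest of its group (12.56 beside 12.47 to 12.48, ratio 0.856). Gsta1 in female cs-ERα−/− replicate 3 was the highest of its group (7.18 beside 6.43 to 6.52, ratio 0.876). Gstm1 in male cs-ERα−/− replicate 1 was the lowest of its group (11.01 beside 11.05 to 11.05, ratio 0.895). Keap1 in female WT replicate 3 was the highest of its group (10.48 beside 10.40 to 10.41, ratio 0.914). Prdx3 in male cs-ERα−/− replicate 3 was the lowest of its group (11.78 beside 12.09 to 12.13, ratio 0.882). Prdx4 in female WT replicate 1 was the highest of its group (11.76 beside 11.50 to 11.53, ratio 0.890), and Prdx4 in female cs-ERα−/− replicate 4 likewise (11.76 beside 11.59 to 11.62, ratio 0.854). Txn2 in male cs-ERα−/− replicate 3 was the lowest of its group (10.05 beside 10.13 to 10.13, ratio 0.955).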

How the results depend on the processing

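Counts of called members were 3 by genotype, 1 by sex, 0 for the interaction, 1 in males and 1 in females. With median scaling they were 1 (Gsta1), 0, 0, 0 and 0, and probes called fell from 458 to 131 by genotype (65.1% to 77.1% of them higher) and from 155 to 79 by sex (50.3% to 65.8% higher). Without the intensity trend, 0 members were called in males and 0 in females, and with an ordinary linear model 0 by sex, 0 in males and 0 in females. Without a probe filter 0 were called in females, and with the mean of each gene's probes 0 in males. The cause was not tested. Over the 16 fits that left out 1 array, counts ranged from 3 to 4 by genotype, 1 to 2 by sex, 0 to 0 for the interaction, 0 to 1 in males and 0 to 1 in females. Gpx1, Tspo and Gsta1 by genotype and Mgst1 by sex were called in all 16. The male Tspo call was lost without male WT replicates 1, 2 or 3 or male cs-ERα−/− replicates 1, 2 or 3, and the female Gpx1 call without female WT replicates 1, 3 or 4 or any female cs-ERα−/− replicate. Gstm1 was gained without male WT replicate 3 (adjusted p = 0.0497), female WT replicate 3 (0.0472) or female cs-ERα−/− replicate 2 (0.0447). Gsta4 was gained by sex without female WT replicate 2 (0.0257). Mgst3 was gained without male cs-ERα−/− replicate 2 or 3 or female cs-ERα−/− replicate 3, and Keap1 without female WT replicate 4, each through a probe other than the brightest. No called difference by genotype or sex changed sign. Among uncalled differences, median scaling turned Txnrd2 negative by genotype and raised the number positive by sex from 12 to 20 of 29. The genotype and sex differences of the brightest probes stayed on the same side of the threshold in 1440 comparisons with an alternative, most of them never called, fell short of it in 6 and newly passed it in 4. With the replicate block, counts were 3 by genotype, 1 by sex, 0 for the interaction, 1 in males and 1 in females. The labels do not say that a replicate number pairs mice. Residuals of same-numbered mice correlated at −0.107 to 0.204 (median 0.0584), and of other-numbered mice at −0.269 to 0.149 (median −0.00769). With the block, probes called rose from 458 to 537 by genotype and from 155 to 178 by sex. Whether mice of 1 number share an effect was not tested. Signals near background, such as Txn1 and Hmox1, limit what can be read for those members.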
